A study of Mus musculus with 2 samples.

Results

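Axon guidance ligands and receptors were described in type 5 retinal bipolar cells of the mouse, as the 73 genes of the ephrin, semaphorin, Slit, netrin and repulsive guidance molecule (RGM) systems among the 32813 gene symbols of the deposited table. The genes were chosen by symbol, with earlier results of these data known. They were Eph receptors (14) and ephrins (8), semaphorins (20), plexins (9) and neuropilins (2), and Slits (3) and Robo receptors (4). Netrins (4), the receptors Dcc, Neo1 and Unc5a to Unc5d, and the ligands Draxin, Rgma and Rgmb made up the rest. By role, 35 encode receptors and 38 encode ligands. The series has 1 group of 2 libraries, called replicate 1 and replicate 2 here and described by the submitters as biological replicates. Both hold total RNA of cells that fluorescence sorting took from the Htr3a-GFP line after retinas were dissociated; in this line green fluorescent protein marks the cells. The strain background, age and sex of the mice, and any pooling of animals, were not given in the sources used here. No other cell population was sequenced in the samples analysed here, so each value is a level in the sorted cells and not an enrichment over other retinal cells.

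Type 5 cells are cone bipolar cells whose axons end in the ON sublayers of the inner plexiform layer, the synaptic layer of the inner retina. Guidance ligands are secreted or displayed on cell surfaces and are read by receptors that steer the cytoskeleton of axons and dendrites. In the retina they are known for wiring ganglion cell axons to the brain and for sorting neurites into sublayers of the inner plexiform layer. Several ligands of the ephrin and semaphorin families are membrane proteins and can themselves signal into the cell that carries them.

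Levels are in TPM (transcripts-per-million, a unit already divided by transcript length, so that levels can be compared between genes), as deposited. A gene was called above a line of 1 TPM, or of 10 TPM, in limma, one-sided, on log2(TPM + 1) with Benjamini-Hochberg adjustment over all 19968 genes above 0 in either library and a threshold of 0.05. Where nothing else is said, a mean is given ± SD with n = 2 libraries. Read depth cannot be had from TPM, and no detection limit is given for that reason. A value of 0 is given as listed, because Rps27, a gene of the ribosome with a place in every cell, was itself listed at 0 in replicate 1, against 838 TPM in the other library.

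Markers of the labelled cell type were present. All 5 type 5 genes examined (Htr3a, Kcng4, Cdh9, Sox6 and Lrrtm1) were above 10 TPM, as were all 7 general bipolar genes. Genes of other retinal cells were also present. Of the 7 rod genes reported 6 were above 1 TPM, with summed levels of 584 TPM in replicate 1 and 756 in replicate 2, against 5739 and 5344 for the 7 bipolar genes. Of the 7 Muller glia genes 6 were above 1 TPM, summing to 188 and 396 TPM. The amacrine list (7 genes, 1 above 1 TPM) summed to 38.0 and 47.3 TPM, with Chat and Calb2 listed at 0 in both libraries. The ganglion cell list (7 genes, 1 above 1 TPM) summed to 31.7 and 73.0 TPM, nearly all of it Thy1, with Pou4f2, Nefm and Sncg listed at 0 in both. The cone list (6 genes, 1 above 1 TPM) summed to 104 and 29.5 TPM. Of the 5 horizontal cell genes, the septin gene Sept4 was above 1 TPM, at 194 and 213 TPM, and the other 4 summed to 2.49 and 10.4 TPM. The astrocyte, endothelial, pericyte and microglia lists had no gene above 1 TPM, and the highest of their sums was 14.6 TPM, for microglia in replicate 2. The endothelial genes Cldn5 and Cdh5 and the pericyte genes Pdgfrb and Kcnj8 were listed at 0 in both. What part RNA of other cells has in the guidance gene levels was not tested. In bulk samples, fewer cells of a type and less RNA per cell cannot be told apart.

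The most abundant member was Epha7, an Eph receptor, followed by the Slit receptor Robo2. Their promoters are shown because these are the top 2 members by mean level, although Robo2 and the next member, Plxnb2, overlapped in level. Both are from RefSeq on GRCm38.p6, 250 bases before the annotated start, with CpG dinucleotides in capitals. The Epha7 window is chr4:28812881-28813130 on the plus strand, directly before the GENCODE M21 gene, which runs from 28813131 to 28967499. The Robo2 window is chr16:74411826-74412075 on the minus strand, directly before the gene at 73891839 to 74411825. RefSeq lists 1 further start for Epha7 and 2 further starts for Robo2, and gene-level TPM does not say which start was used.
Epha7: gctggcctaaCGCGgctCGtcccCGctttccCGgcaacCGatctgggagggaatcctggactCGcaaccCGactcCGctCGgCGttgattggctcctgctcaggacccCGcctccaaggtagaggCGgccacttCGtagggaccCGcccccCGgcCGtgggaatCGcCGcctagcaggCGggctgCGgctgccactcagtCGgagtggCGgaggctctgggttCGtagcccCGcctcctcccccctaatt
Robo2: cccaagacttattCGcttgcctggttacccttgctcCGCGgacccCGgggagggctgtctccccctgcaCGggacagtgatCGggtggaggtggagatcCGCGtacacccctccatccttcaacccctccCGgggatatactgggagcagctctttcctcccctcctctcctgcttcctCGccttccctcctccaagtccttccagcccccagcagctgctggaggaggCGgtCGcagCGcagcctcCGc
The Epha7 window holds 25 CpGs and the printed Robo2 window 14, against a median of 6 (quartiles 2 and 16) over all 32851 such windows. The other Robo2 windows hold 4 and 8 CpGs and the other Epha7 window 23. RefSeq windows were found for 62 of the 73 members, 80 windows in all, with a median of 16 CpGs. The 19 windows of members above 10 TPM had a median of 14 and the 46 windows of members not above 1 TPM a median of 16. TAATCC, the core motif of the bipolar and photoreceptor factors Otx2 and Crx, was searched on both strands (as TAATCC or GGATTA) and was in 2 of the 80 member windows (2.5%) and in 6.25% of all windows. Neither printed window holds it. A second motif, TATAAA (or TTTATA on the other strand), was in 5.0% of member windows and in 12.4% of all windows. The median share of G and C bases was 64.4% in member windows and 52.4% in all windows. What part base content has in the motif shares was not tested. All of these are descriptions of letters in short windows, and no binding or chromatin was measured.

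Of the 73 members, 9 were listed at 0 in both libraries and 64 were tested. Above 1 TPM were 28 of the 64 tested (43.8%), against 55.5% of all genes tested, and above 10 TPM were 15 (23.4%), against 32.4%. The count above 1 TPM was 31 at an unadjusted p under 0.05 in limma. Among receptors 17 of 33 tested were above 1 TPM (51.5%) and 11 above 10 TPM, and among ligands 11 of 31 (35.5%) and 4. The median of the mean log2(TPM + 1) was 2.38 over the members tested, 3.16 over receptors and 2.02 over ligands, and 3.22 over all genes tested. Without any test, 39 members reached 1 TPM in both libraries (67.6% of all genes tested did so), 41 in replicate 1 and 43 in replicate 2. In this fit limma took each gene's variance from the trend with abundance, so a gene's own spread did not enter its call. Every one of the 28 members called above 1 TPM nevertheless had at least 2.22 TPM in each library. A missing call does not place a gene under the line: 11 uncalled members had at least 1 TPM in both libraries. For the line of 10 TPM, 21 members had at least that level in both libraries, while 15 were called.

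The 73 members together made up 0.168% of the TPM total in replicate 1 and 0.164% in replicate 2. Most of this came from few genes. The 8 members of highest mean (Epha7, Robo2, Plxnb2, Sema4d, Neo1, Dcc, Nrp2 and Sema4g) held 72.8% of the members' sum in replicate 1 and 73.6% in replicate 2, and Epha7 alone held 39.3% and 31.0%.

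Eph receptors are receptor tyrosine kinases that bind ephrins on neighbouring cells. Of the 14, 8 were above 1 TPM (57.1%, against 55.5% of all genes tested) and 5 above 10 TPM (35.7%, against 32.4%). Epha7 had 661 TPM in replicate 1 and 509 in replicate 2 (585 ± 108), rank 158 of all symbols by mean. Its level was above that of each of the 5 type 5 markers in both libraries; the highest of these, the potassium channel subunit gene Kcng4, had 229 and 326 TPM. The next Eph receptor, Epha4, which binds ephrins of both classes, had 36.9 and 39.8 TPM (38.4 ± 2.04). Epha7 thus stood 17.9 times above Epha4 in replicate 1 and 12.8 times in replicate 2, a gap far wider than the spread of either gene.

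Epha5 had 33.5 and 30.5 TPM (32.0 ± 2.12), just under Epha4 and without overlap. Ephb2, a class B receptor, had 25.2 and 23.7 TPM (24.5 ± 1.09). Ephb6, a receptor without kinase activity, had 44.5 and 13.0 TPM (28.7 ± 22.3), so its place among these genes is within its own spread. Epha8 had 22.9 and 18.8 TPM (20.9 ± 2.88). For Epha2 the values were 24.7 and 13.6 TPM (19.2 ± 7.86). This gene and Epha8 were called above 1 TPM but not above 10 TPM, although both had over 10 TPM in each library. Epha10, the other member of the family without kinase activity, was the eighth called, at 7.93 and 7.98 TPM.

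The 6 other Eph receptors were not called. Epha3 had 4.37 and 5.60 TPM and Ephb3 1.36 and 1.15, while Epha1, Epha6, Ephb1 and Ephb4 had at most 0.34 TPM in either library. Class A receptors summed to 792 and 626 TPM and class B receptors to 71.3 and 37.9. Epha7 made up 76.6% of the Eph receptor sum in replicate 1 and 76.7% in replicate 2.

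Ephrins, the membrane-bound ligands of Eph receptors, were low. None of the 8, of which 6 were tested, was called above 1 TPM, against 55.5% of all genes tested. Without a test 2 reached 1 TPM in both libraries and 1 more in replicate 1 alone. Efnb2, a transmembrane ephrin, had 1.54 and 14.6 TPM, and Efnb1 had 3.38 and 4.48. Efna5, a lipid-anchored ephrin, had 5.16 TPM in replicate 1 and 0.09 in replicate 2. The libraries thus disagreed on which ephrin was highest. Efnb3 had 0.14 and 0.92 TPM, Efna2 0.21 in both, and Efna3 a listed 0 and 0.10. Efna1 and Efna4 were listed at 0 in both. The closest ephrin to a call was Efnb2, which was called above 1 TPM in each of the 5 other limma settings tried.

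Plexins are the signalling receptors of semaphorins. Of the 9, 4 were above 1 TPM (44.4%, against 55.5% of all genes tested) and 2 above 10 TPM (22.2%, against 32.4%). Plxnb2, a receptor of class 4 semaphorins, led with 90.7 and 199.7 TPM (145 ± 77.1). Plxna3, which signals for secreted semaphorins together with neuropilins, had 36.2 and 13.4 TPM (24.8 ± 16.1), and did not overlap Plxnb2. Plxna2, a receptor of class 6 semaphorins, had 18.0 and 14.8 TPM (16.4 ± 2.28). Plxna4, also a class 6 receptor, had 6.17 and 12.5 TPM, under Plxna2 in both libraries.

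Of the plexins not called, Plxnd1, a receptor known from blood vessels, had 4.03 and 3.39 TPM. Plxnc1, the plexin that binds Sema7a, had 4.55 and 1.47 TPM. Plxna1, Plxnb1 and Plxnb3 had at most 1.12 TPM in either library. Within the B subfamily, Plxnb2 thus stood at 145 TPM on average beside 0.59 for Plxnb1 and, for Plxnb3, 0.09 TPM in one library and a listed 0 in the other.

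Neuropilins are the ligand-binding co-receptors of secreted class 3 semaphorins. Nrp2, which binds Sema3f, had 60.0 and 41.3 TPM (50.6 ± 13.2) and was above 10 TPM. Nrp1, the neuropilin that Sema3a uses, was listed at 0 in both libraries. No fold between them is given because one is listed at 0.

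Semaphorins, the largest ligand family with 20 genes, also had the most members called, with 10 above 1 TPM and 4 above 10 TPM. Of the 16 tested, 62.5% were above 1 TPM, against 55.5% of all genes tested. Their share above 10 TPM was under the 32.4% of all genes tested. By class, 2 of 7 secreted class 3 genes were called, 4 of 6 class 4 genes, 1 of 2 class 5 genes, 2 of 4 class 6 genes and the single class 7 gene. Class 4 genes encode transmembrane ligands, and these summed to 208 TPM in replicate 1 and 197 in replicate 2, out of 291 and 305 for all semaphorins.

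Sema4d, a ligand of B-type plexins, had 119 and 89.2 TPM (104 ± 21.0) and was the highest ligand gene in both libraries. Sema4g followed with 40.3 and 49.1 TPM (44.7 ± 6.26). Sema4f had 29.4 and 36.5 TPM (33.0 ± 5.03), under Sema4g in both. Sema4a had 9.93 and 15.9 TPM (12.9 ± 4.21). The 4 genes did not overlap each other in level. The 2 class 4 genes not called, Sema4b and Sema4c, had 7.78 and 4.09 TPM, and 1.97 and 2.66 TPM.

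Of the secreted class 3 genes, Sema3f, the ligand of Nrp2, had 31.4 and 19.2 TPM (25.3 ± 8.62) and was above 10 TPM. Sema3a, the ligand of Nrp1, had 4.62 and 10.2 TPM and was above 1 TPM. Sema3e had 0.17 and 0.42 TPM, and Sema3b, Sema3c, Sema3d and Sema3g were listed at 0 in both libraries. Sema3f was above Sema3a in both.

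Sema6a, a transmembrane ligand of Plxna2 and Plxna4 known for layering the inner plexiform layer, had 12.3 and 32.2 TPM (22.2 ± 14.1). Sema6b had 8.13 and 7.12 TPM and was also called above 1 TPM. Sema6d, at 4.85 and 4.18 TPM, and Sema6c, at 8.02 and 0.82, were not. Sema5b had 2.22 TPM in replicate 1 and 16.8 in replicate 2 and was called above 1 TPM, while Sema5a had 0.10 and 5.64 and was not. Sema5a and Sema5b are known in the retina as ligands that keep inner retinal neurites within their layer. Sema7a, a lipid-anchored semaphorin, had 11.2 and 10.6 TPM (10.9 ± 0.44), one of the closest matches between the libraries.

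Robo receptors bind secreted Slit proteins. Robo2 had 109 and 193 TPM (151 ± 59.3), the second highest mean of all members. Robo1, a paralog on the same chromosome (16), had 0.10 and 0.09 TPM. Robo3 had 0.14 TPM and a listed 0, and Robo4, a receptor of endothelial cells, was listed at 0 in both. Robo2 thus made up 99.8% of the Robo sum in replicate 1 and 99.95% in replicate 2.

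Of the Slits, Slit2 was the 1 above 1 TPM, with 2.91 and 13.7 TPM (8.30 ± 7.62). Slit3 had 0.37 and 0.04 TPM, and Slit1 had 0.10 and a listed 0.

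The netrin receptors parted by gene. Neo1, which encodes neogenin, a receptor of RGM proteins as well as netrins, had 71.2 and 95.9 TPM (83.5 ± 17.4). Dcc, the receptor through which netrin attracts axons, had 75.8 and 33.6 TPM (54.7 ± 29.9). The order of these 2 genes differed between the libraries. Unc5a, of the Unc5 receptors that mediate repulsion by netrin, had 35.1 and 11.4 TPM (23.2 ± 16.8) and was under both in each library. Neo1 and Dcc were called above 10 TPM. Unc5a was called above 1 TPM only, although it had over 10 TPM in each library.

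Unc5b had 0.08 TPM in replicate 1 and 9.09 in replicate 2 and was not called. Unc5c had 1.01 and 1.28 TPM, and Unc5d a listed 0 and 0.84. Unc5a was the highest Unc5 gene in both libraries.

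None of the 7 ligands of these receptors, of which 6 were tested, was called above 1 TPM, against 55.5% of all genes tested. Ntn4, a netrin of basement membranes, had 0.79 and 5.12 TPM. Ntn1, the classical attractant, had 0.08 TPM and a listed 0. Ntn3 had 0.27 and 0.05 TPM, and Ntn5 had 0.60 and a listed 0. Rgmb, a membrane-anchored ligand of Neo1, had 1.69 and 3.43 TPM and Rgma was listed at 0 in both. Draxin, a secreted ligand of Dcc, had 0.30 and 0.17 TPM.

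Summed over genes, receptors exceeded ligands in 3 of the 4 systems in both libraries. Eph receptors summed to 863 TPM in replicate 1 and 664 in replicate 2, and ephrins to 10.4 and 20.4 TPM, a ratio of 82.8 and 32.6. Without Epha7 the receptor sums were 202 and 155 TPM, still above the ephrins. Robo receptors summed to 109 and 193 TPM and Slits to 3.38 and 13.7, a ratio of 32.2 and 14.0, nearly all of it Robo2 against Slit2. Netrin and RGM receptors summed to 183 and 152 TPM and their ligands to 3.73 and 8.77, a ratio of 49.1 and 17.3. In the semaphorin system the sums were close, with plexins and neuropilins at 221 and 288 TPM and semaphorins at 291 and 305, a ratio of 0.758 and 0.946. These ratios are descriptions of 2 libraries with no test, and RNA sums do not measure protein. By kind of ligand, 3 of 15 secreted ligands (class 3 semaphorins, Slits, netrins and draxin) and 8 of 23 membrane-bound ligands were above 1 TPM. Both totals include genes listed at 0 in both libraries, which were not tested. Over all ligands tested the share above 1 TPM was 35.5%, against 55.5% of all genes tested.

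**Figure D1:**
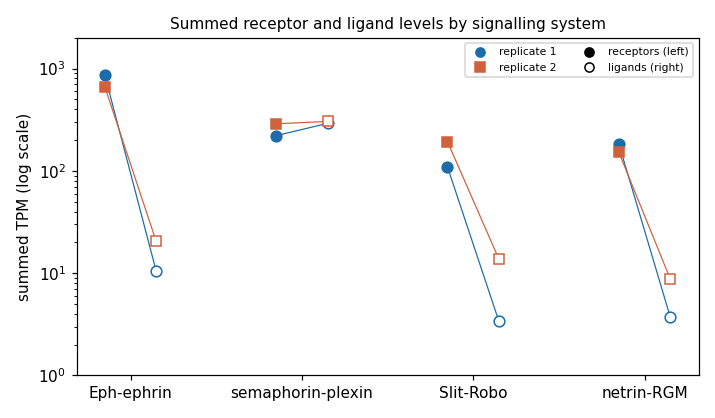
Summed TPM on a log axis for the receptors (filled, left) and ligands (open, right) of each of the 4 systems, with a line joining them in each library. The lines descend by more than 10 times in the Eph-ephrin, Slit-Robo and netrin-RGM systems and are nearly level in the semaphorin-plexin system.

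Of the 22 members with a mean of at least 10 TPM, 16 lay within 2-fold between the libraries in TPM. The 6 others were Ephb6, Plxna3, Unc5a and Dcc, higher in replicate 1, and Plxnb2 and Sema6a, higher in replicate 2. The share of all genes at that level within 2-fold was not counted, so the members cannot be set against it. Of the 44 members with a mean of at least 1 TPM, 22 were higher in replicate 2, against 40.2% of all genes at that level. On the log2(TPM + 1) scale, 4 of the 44 were higher in replicate 2 by over 2 units, against 5.37% of all genes at that level, and 2 were higher in replicate 1, against 7.78%. The 4 were Unc5b with a log2 difference of 3.22, Efnb2 with 2.62, Sema5a with 2.59 and Sema5b with 2.46. The 2 were Efna5 with a log2 difference of -2.50 and Sema6c with -2.31. All 6 had means under 10 TPM. With 1 group of 2 libraries, no test between libraries could be made.

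Markers of other cells also differed between the libraries. The amacrine genes Gad1 and Gad2, of the transmitter enzyme of inhibitory neurons, had 0.06 and 0.11 TPM in replicate 1 and 10.4 and 9.94 in replicate 2, and Tfap2b had 0.33 and 20.4. Another amacrine gene, Slc6a9, was higher in replicate 1, at 36.6 against 3.12 TPM. Of the Muller glia genes, Vim had 0.20 and 119 TPM and Apoe 1.29 and 27.0, while Slc1a3 had 11.1 and 11.3 and Clu 85.7 and 79.5. Glul (75.8 and 124), Rlbp1 (2.31 and 3.74) and Dkk3 (11.23 and 31.65) were higher in replicate 2 by smaller folds than Vim and Apoe. Gnat1, the rod transducin gene, had 14.3 and 113 TPM. The rod genes Pde6a (4.61 and 18.8), Pde6b (6.28 and 13.7) and Nrl (3.43 and 10.7) were also higher in replicate 2. Other rod genes did not follow: Sag (248 and 248) and Rom1 (303 and 351) were nearly level, and Nr2e3 (4.6 and 0.91) was higher in replicate 1. The cone gene Gnat2 was higher in replicate 1, at 86.0 against 23.3 TPM. Whether RNA of these cells contributed to the values of Unc5b, Efnb2, Sema5a, Sema5b, Slit2 or Ntn4 in replicate 2 was not tested.

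**Figure D2:**
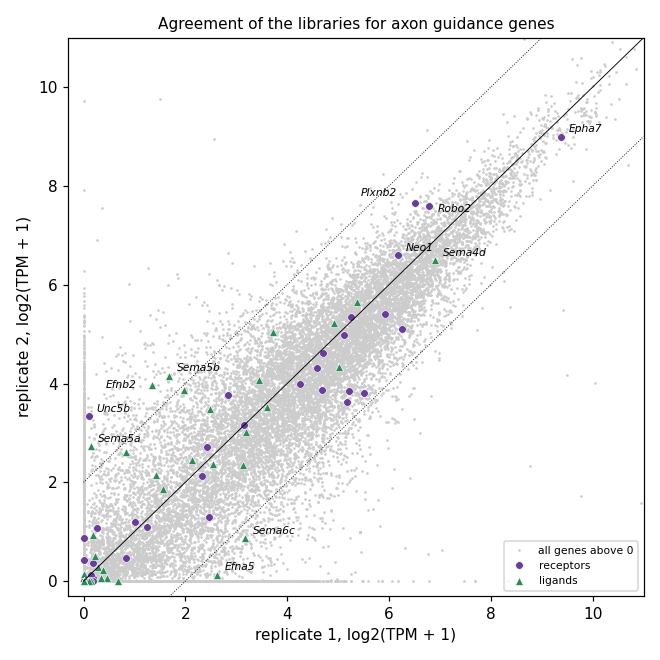
Replicate 1 against replicate 2 as log2(TPM + 1), with axes ending at 11; grey dots are all genes above 0 in either library, circles receptors and triangles ligands, the solid line marks equality and the dotted lines differences of 2 units. Epha7, Robo2, Plxnb2, Neo1 and Sema4d lie between the dotted lines at the upper end, with Plxnb2 the farthest from equality, at 1.13 units. The other 6 labelled genes are the members of at least 1 TPM on average that lie outside the dotted lines.

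Genes that act downstream of these receptors were taken from a list of 50 effectors, of which 48 were tested. Above 1 TPM were 41 (85.4%, against 55.5% of all genes tested), and above 10 TPM 30 (62.5%, against 32.4%). The list was chosen with earlier results of these data known, so these shares only describe the list. The highest mean was that of Evl, an actin regulator of the Ena/VASP family, at 190 and 283 TPM (237 ± 66.0). The small GTPase gene Cdc42 had 191 and 184 TPM (188 ± 5.00), and the actin-severing cofilin gene Cfl1 had 129 and 211 (170 ± 57.8). Rasa1, which encodes a Ras GTPase activator, had 188 and 109 TPM (148 ± 55.6). Cdc42 overlapped each of the other three in level. Srgap3, a Slit-Robo GTPase-activating protein gene, had 130 and 151 TPM (140 ± 14.8). The collapsin response mediator gene Dpysl2, which acts under semaphorin receptors, had 107 and 165 (136 ± 40.9). Rock2, a kinase gene of actin and myosin control, had 131 and 114 TPM (123 ± 12.0), and Gsk3b, a kinase of growth cone signalling, 107 and 125 (116 ± 12.4).

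The effectors span several receptor systems. Srgap3 of the Slit pathway was joined by Srgap2, at 23.0 and 20.1 TPM and above 1 TPM, while Srgap1 had 30.7 TPM in replicate 1 and 0.03 in replicate 2 and was not called. The alpha-chimaerin gene Chn1, a Rac regulator downstream of Epha4, had 95.9 and 59.7 TPM. Ngef, an exchange factor of Eph receptors, was listed at 0 in both libraries, as was Mical1, an oxidoreductase that acts under plexins, whereas its relatives Mical2 and Mical3 had 59.8 and 55.1, and 60.3 and 36.3 TPM. Trio, an exchange factor downstream of Dcc, had 52.1 and 45.7 TPM, and Dock1, another, had 0.32 and 0.10. The remaining effectors not called were Tiam1 at 2.99 and 9.77 TPM, Farp1 at 4.05 and 1.34, Vav2 at 0.95 and 2.48, Dpysl3 at 2.02 and 1.0, and Rras at 1.39 and a listed 0.

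Of 12 co-receptors and alternative partners, all of them tested, 6 were above 1 TPM and 2 above 10 TPM. Among all genes tested, 55.5% were above 1 TPM and 32.4% above 10 TPM. The list holds only 12 genes and was not tested against all genes, so no shortfall is read from its counts. Flrt3, a membrane protein that binds Unc5 receptors and Robo receptors, had 73.9 and 69.1 TPM (71.5 ± 3.41), above every netrin and Slit in both libraries. Lrig2 had 47.9 and 22.6 TPM (35.2 ± 17.9). The adhesion molecule genes Dscaml1 (20.8 and 17.7 TPM), Nrcam (15.4 and 12.1) and L1cam (14.4 and 2.51), and Dag1, the dystroglycan gene (11.3 and 20.7), were above 1 TPM. Flrt1 had 3.57 and 5.38 TPM and Dscam 1.12 and 6.17, and neither was called. Cntn2 had 0.19 and 1.73 TPM, also without a call. Chl1, Flrt2 and Islr2 stood at 2.47, 0.28 and 0.06 TPM in replicate 2, each with a listed 0 in the other library.

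**Figure D3:**
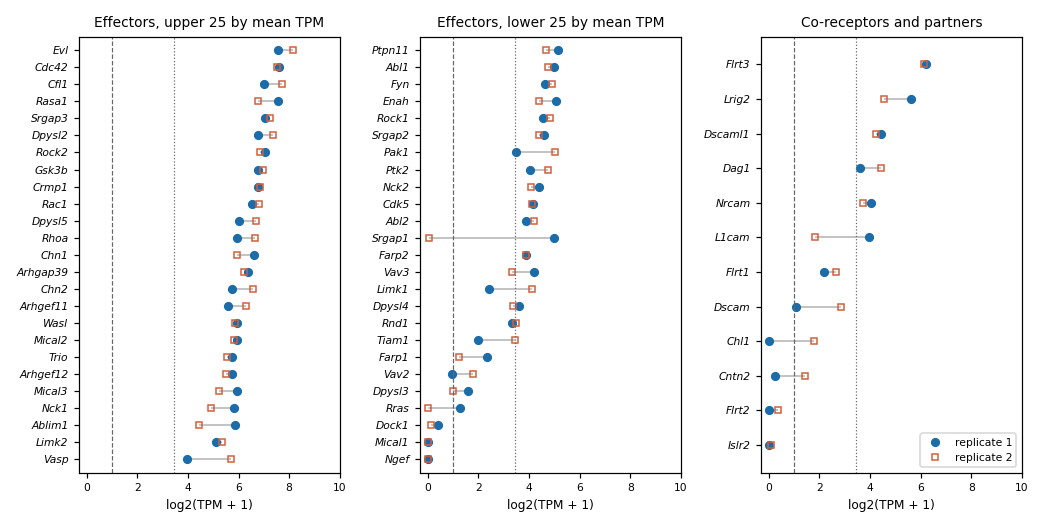
Levels of the 50 effectors, in 2 panels of 25 ordered by mean TPM, and of the 12 co-receptors and partners, as log2(TPM + 1); filled circles are replicate 1, open squares replicate 2, and the dashed and dotted lines mark 1 and 10 TPM. The upper 25 effectors lie right of the 10 TPM line in both libraries, and Srgap1 shows the widest gap between the libraries.

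All 73 members have an entry in GENCODE M21, whose assembly, GRCm38, is mm10 under another name. The exons of 19 members overlap those of another gene, and reads of such pairs may not be told apart, because no source used here says whether strand was counted. Only 4 of the 19 were above 1 TPM (Epha10, Plxna4, Sema4a and Unc5a), and in these the overlap covered at most 1.35% of the exon bases. Of the other leading genes, Plxnb2 is at chr15:89155549-89180788, Sema4d at chr13:51685529-51793747 and Neo1 at chr9:58874687-59036441, each on the minus strand, and Nrp2 is at chr1:62703285-62818695 on the plus strand.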

How the data were processed

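RNA was measured by sequencing in 2 libraries of 1 group, from retina sorted by fluorescence into RNAlater and amplified with the NuGEN Ovation RNA-seq system, per the labels' protocols. The authors deposited 1 table of TPM with a column per library, summing to about 1000000 each. Per the submitters' processing notes, TopHat2 2.0.10, RSEM 1.2.28 and mm10 were used, with no role given. For annotation, filters and strand, settings were not given in the sources used here. In the name of 1 column the gene is misspelt, and the number in it gave its library. Mitochondrial and ribosomal RNA took 17.4% and 24.7% of the TPM, which lowers all other values.

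Values were put on log2(TPM + 1). Levels were tested in limma 3.58.1 (R 4.3.3; Python 3.11.15 for the rest) with an intercept-only model and variance trend, after a check on simulated data; the prior for the variance was infinite. With this prior, p-values rest on the spread between these libraries along the trend over all genes, and not on each gene's own spread. Values per library were given for members with a mean of at least 10 TPM, a log2 difference over 2 at a mean of at least 1 TPM, or a 0 beside at least 5 TPM, and, of the effectors, for the 8 highest and those not called; other members are named since the list is the subject, and the effectors and co-receptors beyond this rule were chosen after their values were seen. The members and lists were chosen with earlier results of these data known. The marker gene Septin4 is in the table under its older symbol, Sept4, found through RefSeq synonyms. One marker gene is not reported here.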

Additional observations from a re-analysis of the deposited data

How the results depend on the processing

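The count of members above 1 TPM was 31 to 34 under the other limma settings (pseudocount of 0.1, a filter on a mean of 0.5 TPM, rescaling without mitochondrial and ribosomal RNA, no variance trend, a robust prior), and each kept all 28 genes. Efnb2, Epha3 and Sema4b were added in all 5. The count above 10 TPM was 12 to 19, and without the variance trend Ephb6, Plxna3 and Sema3f lost the call. Effector counts were 42 or 43, against 41. Leaving out a library ends the test, so counts of members at or over the line stand in for it: 41 to 43 at 1 TPM and 21 to 27 at 10 TPM, the higher of each without replicate 1, and 45 to 46 effectors. The median log2 level of the members, 2.38, was 2.10 with a pseudocount of 0.1, 3.16 with the filter and 2.66 after rescaling, and 2.38 to 2.67 with 1 library left out; the filter removes low genes by construction. Rescaling shifted the genes tested by a median of 0.25 (replicate 1) and 0.37 (replicate 2) log2 units per gene. It moved the level of 11 of 28 members described in full by more than its SD. No paired analysis was possible because the series has 1 group. The unknown depth limits every low value.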
